A study of Homo sapiens with 8 samples.

Results

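The mitochondrial ribosomal protein genes encode the protein subunits of the ribosome inside mitochondria. They were taken as every gene of the expression table named MRPL or MRPS followed by a number, with an optional letter from A to C. Of the 60332 genes in the table, 78 carried such a name, and all 78 passed the filter on low values, which left 15372 genes to be tested. Pseudogenes and antisense genes of the family were not members, and neither were the ribosomal subunits that go by other names, such as DAP3 and PTCD3.

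The mitochondrial ribosome, or mitoribosome, translates the few messenger RNAs that the mitochondrial genome encodes, and these specify core subunits of the respiratory chain and of ATP synthase. Its ribosomal RNAs come from the mitochondrial genome, while its proteins are encoded in the nucleus, made in the cytosol and imported. Some of the proteins are homologues of bacterial ribosomal proteins and others were added in the mitochondrial lineage. The transcripts of the mitochondrial genome itself were not analysed here.

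The cells were of the Ewing sarcoma line SK-N-MC, which is driven by the fusion EWSR1-FLI1. RNA sequencing covered 8 libraries in 4 groups of 2. All cells carried a lentivirus for dCas9-KRAB, in which the KRAB repressor domain is joined to a Cas9 that no longer cuts, and had been selected with puromycin as pools of transduced cells, not as clones. Control cells held the vector without a guide and were kept for 16 h in normoxia or in hypoxia at 1% oxygen. The eKD1 and eKD2 cells held 1 of a pair of guides that direct the repressor to the LOXHD1 enhancer, and all 4 of their libraries came from the same 16 h at 1% oxygen, so their effect without hypoxia was not analysed here. The study calls the duplicates biological, but the sample labels do not say that they were separate cultures, and p-values then measure only the spread between these libraries.

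LOXHD1, the gene under the targeted enhancer, stood at 156 and 169 FPKM (reads scaled to transcript length and to the size of the library) in normoxic control cells and at 93.0 and 91.1 in hypoxic control cells. The eKD1 libraries had 17.3 and 15.0 FPKM and the eKD2 libraries 11.7 and 11.8, which is the direction that the knockdown labels give. LOXHD1 does not check the oxygen labels, nor which guide a library held. FPKM keeps no read counts, so the sequencing depth is unknown, and no counting interval could be given. The smallest values gave the depth of each library as 55.7 to 100% of the deepest. The normoxic control libraries stood at 76.0 and 55.7%, the hypoxic control libraries at 100 and 96.1%, eKD1 at 82.7 and 61.2% and eKD2 at 77.6 and 77.1%. Depth thus differed between the groups of the hypoxia comparison, and its part in the results was not tested. All 8 Ewing sarcoma marker genes were at 1 FPKM or more in every library. Of the marker genes of other cell types, VWF and CDH5 of endothelium stayed under 1 FPKM. Of the 3 epithelial markers, KRT5 was at 0 in all libraries, EPCAM at 3.39 to 5.80 FPKM and CDH1 at 0.0262 to 2.33. By group their sum was 3.72 to 7.13 in normoxic control cells, 4.77 to 5.49 in hypoxic control cells, 5.66 to 6.99 in eKD1 and 4.18 to 8.05 in eKD2. The 3 leukocyte markers summed to 23.6 to 24.6 FPKM in normoxic control cells, 5.51 to 5.78 in hypoxic control cells, 11.3 to 11.7 in eKD1 and 14.8 to 15.1 in eKD2, nearly all of it PTPRC and with CD3E at 0 throughout. The part of these markers in the results was not tested. In bulk RNA, fewer cells that make a transcript and less of it per cell cannot be told apart.

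On GRCh37, the build of the expression table, the GENCODE annotation places MRPL20 at chr1:1337289-1342673, MRPL24 at chr1:156707095-156711382, MRPS12 at chr19:39421584-39423808, MRPL47 at chr3:179306073-179322437, MRPS10 at chr6:42174545-42185599, MRPL58 at chr17:73008765-73017356 and MRPS24 at chr7:43906157-43909492, all as protein-coding genes.

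The start regions of 5 of the genes are printed because the largest falls in hypoxia, the pairs of genes that start next to each other, and the change met in the enhancer knockdown turn on them. They were read from RefSeq promoter windows on build GRCh38.p14, which is not the build of the expression table, and all end at the base before the RefSeq start. Capitals mark a match to the ETS motif CCGGAAG, the core bound by the nuclear respiratory factor GABP and other ETS proteins, or to GCGCANGCG, the motif of NRF1, on either strand. The MRPS12 and MRPL47 stretches are 181 and 41 bases long, the distances to the start of the neighbouring gene in GENCODE on GRCh37. RefSeq lists more than 1 start for both genes and no coordinates were converted. These stretches therefore only approximate the DNA between the starts. The MRPL20 window lies at chr1:1407294-1407543 on the minus strand, MRPL24 at chr1:156741089-156741338 on the minus strand, MRPS12 at chr19:38930763-38930943 on the plus strand, MRPL47 at chr3:179604639-179604679 on the minus strand and MRPS24 at chr7:43869518-43869767 on the minus strand.
MRPL20: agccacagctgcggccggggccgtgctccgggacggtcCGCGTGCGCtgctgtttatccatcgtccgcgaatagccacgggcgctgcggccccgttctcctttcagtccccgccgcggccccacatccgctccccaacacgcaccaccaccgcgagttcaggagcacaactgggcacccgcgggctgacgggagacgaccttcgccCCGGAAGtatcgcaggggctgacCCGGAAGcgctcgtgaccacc
MRPL24: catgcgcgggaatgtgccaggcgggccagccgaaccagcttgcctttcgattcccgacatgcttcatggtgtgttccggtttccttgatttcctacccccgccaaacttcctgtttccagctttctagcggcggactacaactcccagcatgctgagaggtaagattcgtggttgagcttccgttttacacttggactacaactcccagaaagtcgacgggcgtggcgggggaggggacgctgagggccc
MRPS12: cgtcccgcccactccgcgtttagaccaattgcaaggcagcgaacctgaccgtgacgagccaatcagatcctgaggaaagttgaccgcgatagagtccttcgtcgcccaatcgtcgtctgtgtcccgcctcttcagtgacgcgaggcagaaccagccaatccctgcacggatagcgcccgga
MRPL47: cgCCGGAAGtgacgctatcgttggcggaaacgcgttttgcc
MRPS24: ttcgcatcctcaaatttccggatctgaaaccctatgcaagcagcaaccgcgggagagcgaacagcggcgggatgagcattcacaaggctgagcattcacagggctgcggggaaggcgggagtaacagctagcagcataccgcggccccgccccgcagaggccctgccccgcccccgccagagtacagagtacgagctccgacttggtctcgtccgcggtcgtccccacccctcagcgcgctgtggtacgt
The MRPL20 stretch held 1 NRF1 motif and 2 ETS motifs, and the 41 bases in front of MRPL47 held 1 ETS motif. The other 3 stretches held none of the motifs searched. The windows of 300 bases described next reach past the start, and there MRPS12 had 1 ETS motif and MRPS24 1 motif of YY1.

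RefSeq windows of 300 bases, from 250 before to 50 after a start, were at hand for 69 of the 78 genes, with 85 windows in all because some genes have several starts. The ETS motif lay in 38.8% of these windows, against 16.9% of the 14191 windows of protein-coding genes that were tested and 10.3% of all 35116 windows. AANATGGCG, the motif of YY1, lay in 21.2% of the family's windows, against 6.05% and 3.19%. For the NRF1 motif the shares were 17.6%, 12.8% and 7.52%. The E-box CACGTG lay in 10.6%, 9.34% and 7.26%. ACGTG, a form of the core of the hypoxia response element that every such E-box also contains, lay in 29.4%, 25.4% and 21.4%. The form GCGTG of this core was not searched. The windows of a gene overlap, so the shares are a description without a test.

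Expression of the family spanned 46.0-fold between genes. MRPL51 was highest, with a mean over the 8 libraries of 506 FPKM, and MRPL50 lowest, with 10.99 FPKM. Both belong to the part of the large subunit that has no bacterial counterpart. The median gene had a mean of 71.2 FPKM. Across libraries the levels moved far less, since a gene's highest library was a median of 1.40 times its lowest, and at most 2.12 times, in MRPL20. The 30 large subunit proteins with a bacterial homologue had a median level of 93.7 FPKM, the 21 large subunit proteins specific to mitochondria 41.9, the 16 small subunit proteins with a bacterial homologue 67.8, and the 10 small subunit proteins specific to mitochondria 58.4.

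**Figure D1:**
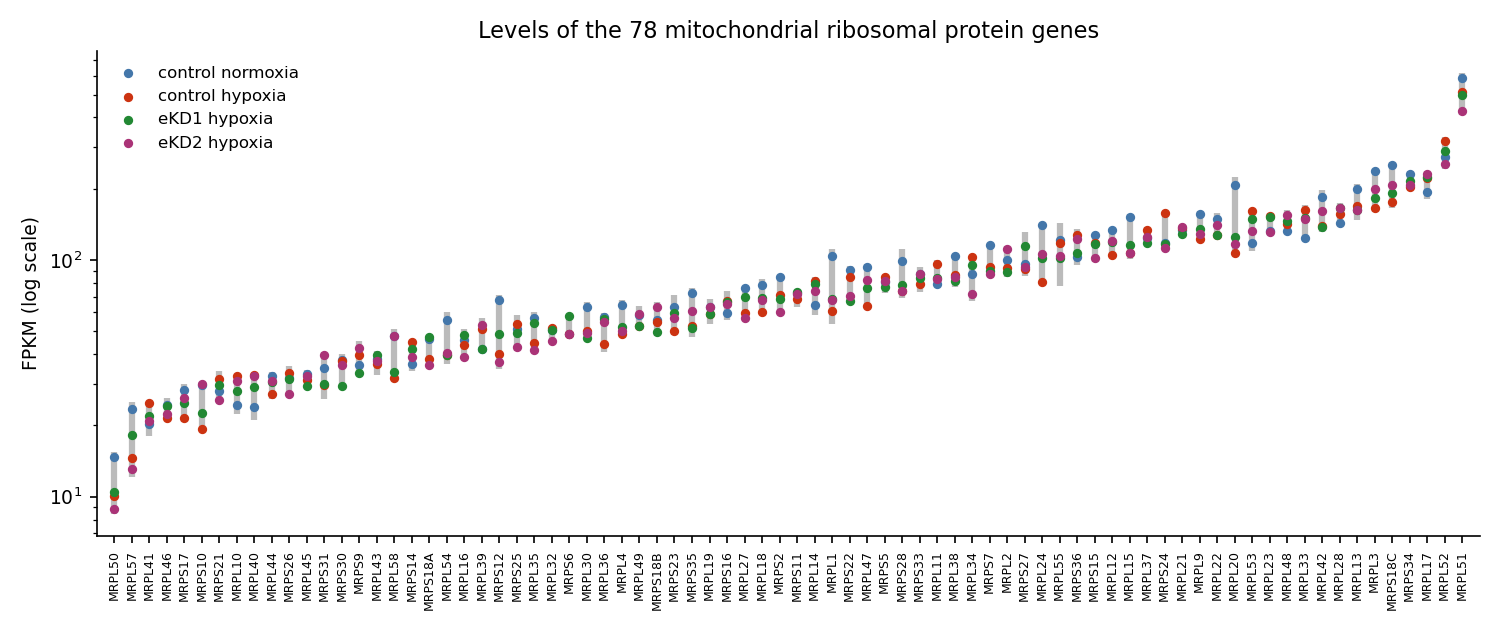
Level of each of the 78 genes in FPKM on a log scale, in order of the mean over all libraries. Points are means of 2 libraries per group and grey bars run from the lowest to the highest of the 8 libraries. The order from MRPL50 at 10.99 FPKM to MRPL51 at 506 FPKM spans 46.0-fold, while single genes differ at most 2.12-fold between libraries.

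Summed over the 78 genes, the normoxic control libraries held 7378 and 7726 FPKM and the hypoxic control libraries 6900 and 6873. The eKD1 libraries held 7028 and 6730 FPKM and the eKD2 libraries 6945 and 6605. Only the normoxic libraries therefore stood apart in this sum, and the 3 hypoxic groups overlapped. As a share of all FPKM in a library, the family made up 0.867% ± 0.0194 (SD, n = 2) in normoxia, 0.669% ± 0.00865 in hypoxic control cells, 0.702% ± 0.00406 in eKD1 and 0.708% ± 0.0286 in eKD2. With 2 libraries against 2, the smallest p that an exact permutation test can give is 0.333, so the sums were not tested. The FPKM totals differed too, from 865107 in a normoxic library to 1041457 in a hypoxic one. The ratio of large to small subunit transcripts was 2.55 in normoxia, 2.58 in hypoxic control cells, 2.59 in eKD1 and 2.58 in eKD2.

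The first comparison asked how hypoxia changed the family in control cells. In limma's test on log2(FPKM + 1), 19 of the 78 genes were called lower and 5 higher at an adjusted p under 0.05. Of all genes tested, 16% were called lower and 16.2% higher. The median change of the family was -0.13 on the log2 scale, beside 0.01 for all genes tested, and its interquartile range was 0.47 against 0.82. No member changed by 2-fold or more, against 12.7% of all genes tested. In 41 genes, or 52.6% of the family, both hypoxic libraries lay below both normoxic ones, beside 34.5% of all genes tested. In 18, or 23.1%, they lay above, beside 35.9% of all genes, and in 19 the groups overlapped. The 24 calls were 30.8% of the family, below the 35.5% of all tested protein-coding genes and the 41.5% of those with a mean of at least 8 FPKM.

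The calls did not hold their number under every setting. With libraries rescaled to equal FPKM totals, 44 members were called lower and none higher, or 56.4% beside 35.8% of all genes, but the median of all genes then moved to -0.19, and the family's median relative to it was -0.18, beside -0.14 without the rescaling. Of all calls in the table, 28.4% were then higher, beside 50.3% without it. With the replicate number as a block, 7 members were called lower and 1 higher, or 10.3% beside 16.7% of all genes.

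**Figure D2:**
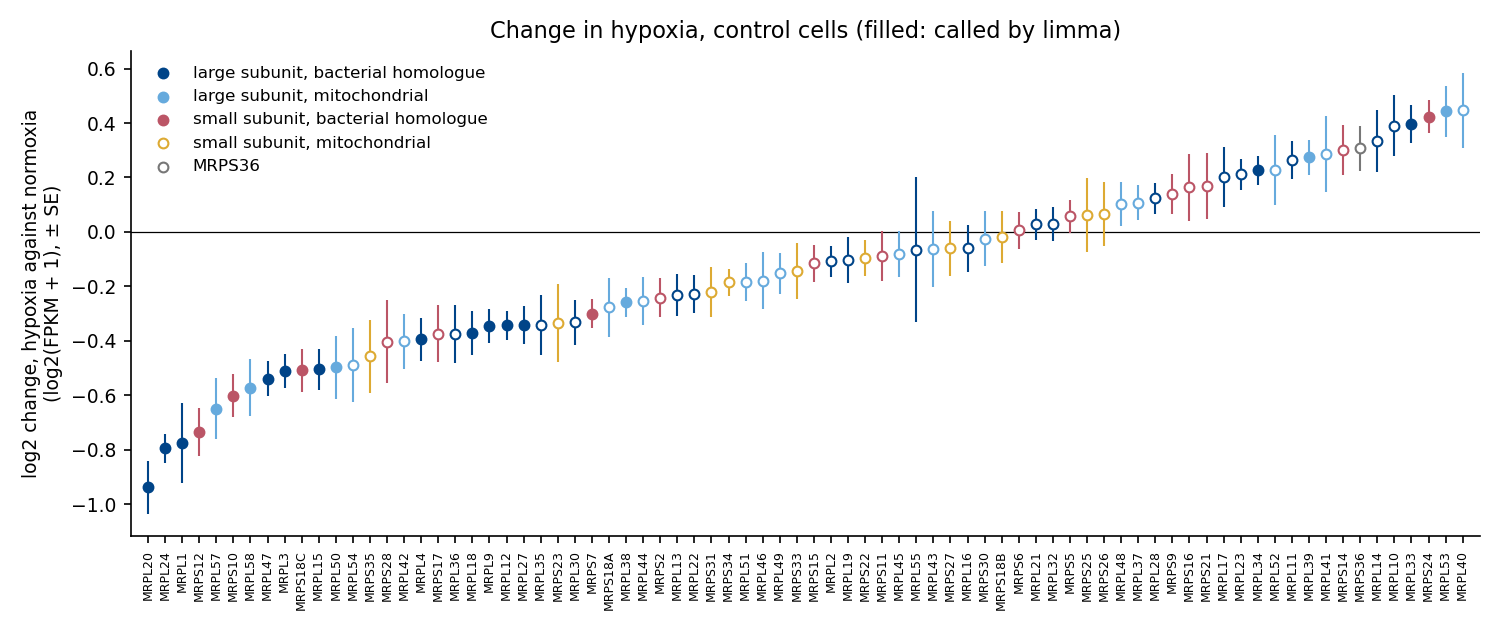
Change of each gene in hypoxia against normoxia in control cells, as the difference of mean log2(FPKM + 1) with its standard error, in order of the change. Filled points passed limma's test at an adjusted p under 0.05, and colours give the subunit and whether the protein was counted as having a bacterial homologue. The 19 filled points on the left run from -0.94 in MRPL20 to -0.26 in MRPL38, and the 5 on the right from 0.23 in MRPL34 to 0.44 in MRPL53.

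Of the large subunit proteins with a bacterial homologue, 11 of 30 fell and 2 rose, with a median change of -0.23, and with equal FPKM totals 19 fell and none rose. MRPL20 binds ribosomal RNA early in assembly of the bacterial large subunit. It had 190.1 and 224 FPKM in normoxia and 109 and 106 in hypoxia. The hypoxic mean was 51.8% of the normoxic one, the largest fall of the family, with a log2 change of -0.94 ± 0.10 (SE) and an adjusted p of 0.0108 by limma. A noncoding gene on the opposite strand, AL391244.1, shares 4.99% of its exonic bases and had a mean of 25.01 FPKM against 139 for MRPL20, and the library kit did not mark strand. RN7SL657P, a copy of the 7SL RNA gene on the same strand, shares 10.6% of the exonic bases and had a mean of 5.17 FPKM, with a change of -1.36 and an adjusted p of 0.0987 by limma, so the split of reads between it and MRPL20 is uncertain.

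MRPL24, another RNA-binding protein, had 139 and 142 FPKM in normoxia and 81.9 and 79.2 in hypoxia. The duplicates were close together and the groups far apart, so that its change of -0.79 ± 0.05 (SE) had the smallest adjusted p of the family, 0.00778 by limma. MRPL1, part of the stalk through which transfer RNAs leave the ribosome, had 111 and 97.1 FPKM in normoxia and 53.8 and 67.8 in hypoxia, a change of -0.78 ± 0.15 (SE) with an adjusted p of 0.0306. Its hypoxic libraries were the most uneven of the called genes printed here, but neither reached the normoxic range. MRPL47, the counterpart of a bacterial protein at the exit of the peptide tunnel, had 90.8 and 96.1 FPKM in normoxia and 65.5 and 62.4 in hypoxia. MRPL3, which reaches close to the peptidyl transferase centre, had 231 and 243 FPKM in normoxia and 173 and 159.7 in hypoxia. Their changes were -0.54 and -0.51, with adjusted p of 0.0136 and 0.0143 by limma.

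The stalk proteins that recruit translation factors did not share a direction. MRPL12, which also binds the mitochondrial RNA polymerase, had 131 and 136 FPKM in normoxia and 106 and 104 in hypoxia, a change of -0.34 with an adjusted p of 0.0199 by limma. MRPL10 and MRPL11 had higher values in both hypoxic libraries, with changes of 0.39 and 0.27, but missed the threshold at adjusted p of 0.070 and 0.059. The rises that passed were those of MRPL33, from 123 and 125 FPKM to 172 and 155, and MRPL34, from 86.5 and 88.6 to 104 and 101, both short basic proteins of the large subunit. Their changes were 0.40 and 0.23, with adjusted p of 0.0265 and 0.0458 by limma. With equal FPKM totals, the change of MRPL34 was -0.01 and that of MRPL33 was no longer called. ABHD8 on the opposite strand shares 14.6% of the exonic bases of MRPL34, at a mean of 11.9 FPKM against 89.3. ABHD8 rose by 0.84 with an adjusted p of 0.0371 by limma, so the split of reads between both is uncertain. MRPL55 had 137 and 106 FPKM in normoxia and 92.5 and 143 in hypoxia, the widest spread between duplicates among the genes printed here, and nothing could be read from its change of -0.07 ± 0.27 (SE).

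Among the 21 large subunit proteins specific to mitochondria, 4 (19.0%) fell and 2 rose, where 16% and 16.2% of all genes tested did. Their median change was -0.15. With equal FPKM totals 11 fell and none rose, where 35.8% of all genes were called in either direction. MRPL57 had 21.7 and 25.1 FPKM in normoxia and 14.8 and 14.2 in hypoxia. MRPL58, a peptidyl-tRNA hydrolase that became a fixed part of the large subunit and was known as ICT1, had 51.3 and 43.8 FPKM in normoxia and 32.0 and 31.1 in hypoxia. Both genes had hypoxic duplicates that nearly coincided below a wider normoxic pair. The changes were -0.65 and -0.57, with adjusted p of 0.0255 and 0.0282 by limma. MRPL50, the lowest gene of the family, went from 13.8 and 15.5 FPKM to 9.88 and 10.2, and its adjusted p of 0.0453 by limma was the highest among the 19 falls.

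MRPL53 and MRPL39 were the risers of this group. MRPL53 had 109 and 128 FPKM in normoxia and 164 and 158 in hypoxia, a change of 0.44 ± 0.09 (SE) with an adjusted p of 0.0384 by limma. It shares 72.9% of its exonic bases with CCDC142 on the same strand, whose own mean was 5.99 FPKM, so the split of reads between both is uncertain. MRPL39 rose by less, from 41.3 and 42.5 FPKM to 50.3 and 51.5. MRPL40 had the largest positive change of all members, 0.45, from 21.1 and 26.7 FPKM to 32.7 and 32.8, but the spread in normoxia left its adjusted p at 0.0825. MRPL51, MRPL41 and MRPS30, which is named for the small subunit but sits in the large one, had changes of -0.18, 0.29 and -0.02, none of them called.

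In the small subunit, 4 of the 16 proteins with a bacterial homologue (25%) fell and 1 rose, where 16% and 16.2% of all genes tested did. None of the 10 proteins specific to mitochondria was called in either direction. With equal FPKM totals, 9 of the 16 and 5 of the 10 fell, where 35.8% of all genes were called in either direction. MRPS12, whose bacterial counterpart sits at the decoding centre, had 71.0 and 64.1 FPKM in normoxia and 38.7 and 41.6 in hypoxia, a change of -0.74 ± 0.09 (SE) with an adjusted p of 0.0132 by limma. MRPS10 had 29.7 and 29.6 FPKM in normoxia and 19.0 and 19.4 in hypoxia, a change of -0.60 ± 0.08 (SE) with an adjusted p of 0.0150. In both genes the gap between groups was far wider than the gap within them. The remaining falls were MRPS18C at -0.51 and MRPS7 at -0.30.

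The small subunit's only rise was MRPS24, whose bacterial counterpart lies where messenger RNA enters the ribosome. It went from 113 and 122 FPKM to 157 and 159, a change of 0.42 ± 0.06 (SE) with an adjusted p of 0.0174 by limma. With equal FPKM totals its change was 0.18 and no longer called. A readthrough transcript, URGCP-MRPS24, shares 23.3% of its exonic bases and was listed at a mean of 0.820 FPKM, against 126 for MRPS24.

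The MRPS18 paralogues, of which MRPS18A sits in the large subunit, had unlike values. The classes follow ribosome nomenclature, so only MRPS18C was counted with a bacterial homologue, although the paralogues are related to each other. MRPS18A and MRPS18B were counted as specific to mitochondria. MRPS18C fell from 243 and 260 FPKM to 167 and 187, with an adjusted p of 0.0212 by limma, whereas MRPS18A changed by -0.28 and MRPS18B by -0.02, neither called. Differences between the paralogues were not tested. Exons of ABRAXAS1 on the other strand cover 40.2% of MRPS18C, at a mean of 25.3 FPKM against 207. MRPS2 changed by -0.24 and MRPS36, which was named for the ribosome but is now placed in the 2-oxoglutarate dehydrogenase complex, by 0.31, with adjusted p of 0.0739 and 0.0609.

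Over the 10 settings that kept all libraries, the main one included, 6 members were called lower in each, namely MRPL20, MRPL24, MRPL3, MRPL47, MRPS10 and MRPS12. Of the 5 members called higher, none was called in all 10. When each of the 4 libraries was left out in turn, with the spread taken from all groups, 13 of the 19 falls and, of the rises, MRPL33 and MRPS24 stayed called each time. MRPL34 and MRPL39 were not called without any 1 of the 4, at adjusted p of up to 0.212 and 0.198 by limma. MRPL53 was not called without either hypoxic library or without normoxic library 1, at 0.0977, 0.0711 and 0.0900. MRPL50 was not called without either hypoxic library or without normoxic library 2, at 0.0749, 0.0594 and 0.0688, and MRPS18C was not called without hypoxic library 1, at 0.0519. The other falls lost in at least 1 of these fits were those of MRPL18, MRPL27, MRPL38 and MRPS7.

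The other genes of mitochondrial translation were counted from fixed lists, where 16% of all genes tested fell and 16.2% rose. Of 24 assembly factors of the mitoribosome, 10 fell in hypoxia and none rose, with a median of -0.28. Of 17 translation factors 7 fell and 2 rose, with a median of -0.25, and of 20 mitochondrial aminoacyl-tRNA synthetases 5 fell and none rose, with a median of -0.34. Of the 12 genes that maintain or transcribe mitochondrial DNA or process its RNA, 7 fell and none rose. With equal FPKM totals the falls in these 4 lists numbered 13, 11, 10 and 8, where 35.8% of all genes were called in either direction. No gene rose then, so the 2 rises among the translation factors were no longer called. Among 5 mitoribosomal subunits with other names, PTCD3 fell by 0.95 and AURKAIP1 by 0.26, and the other 3 were not called.

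More genes rose than fell in the lists for the cytosolic ribosome and the respiratory chain. Of 77 ribosomal protein genes of the cytosolic ribosome, 75 were called higher in hypoxia and none lower, with a median of 0.65. Of 77 nuclear genes for subunits of the respiratory chain and ATP synthase, 44 were called higher and 2 lower, with a median of 0.37. With equal FPKM totals these counts were 71 higher and 1 lower, and 25 higher and 9 lower. The 95th percentile of the mitoribosomal genes, at 0.39, did not reach the median of the cytosolic ribosomal genes. Of 10 regulators of mitochondrial biogenesis, PPRC1 fell by 1.19, MYC by 0.56 and GABPA by 0.45, and MXI1 rose by 0.90.

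**Figure D3:**
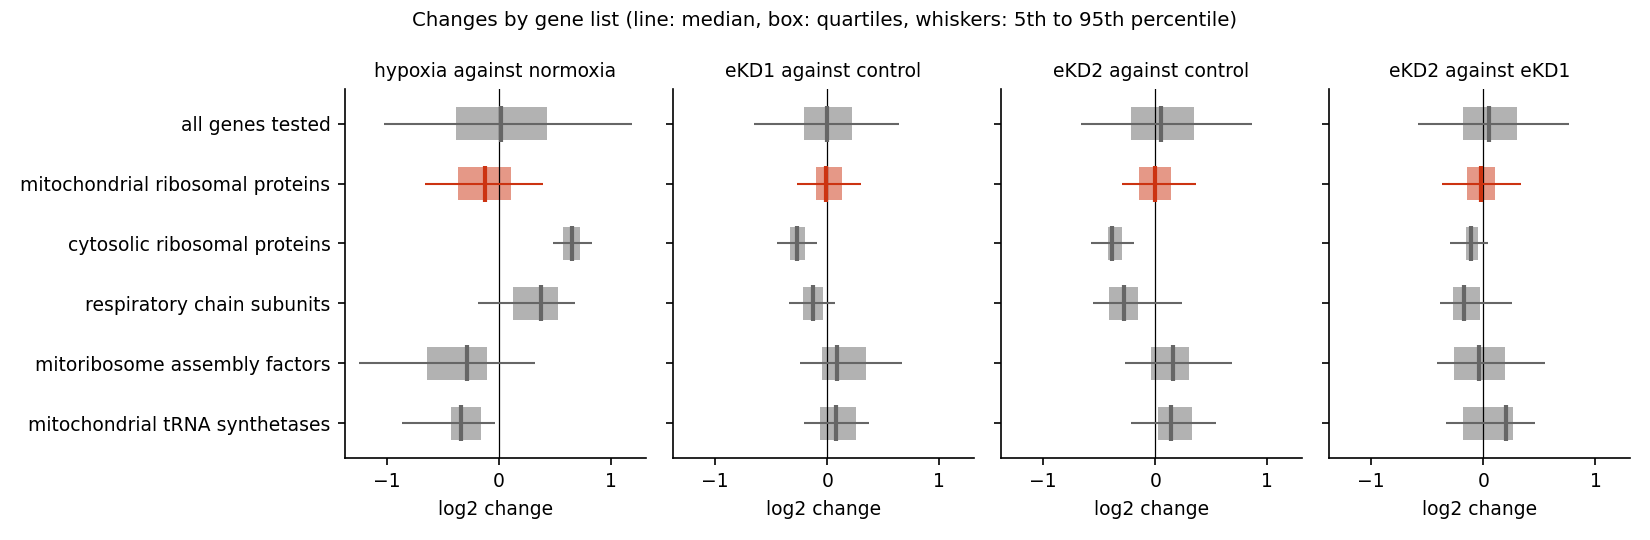
Log2 change of the mitochondrial ribosomal protein genes (red) beside all genes tested and 4 other lists (grey), in each of the 4 comparisons. Thick lines are medians, boxes the interquartile range and whiskers the 5th to 95th percentile. In hypoxia the family's median of -0.13 lies below that of the cytosolic ribosomal genes at 0.65, and in eKD1 and eKD2 its median is at -0.01 and 0.00.

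Many genes of the family start next to a gene on the other strand. Within 1000 bases of a start in the GENCODE annotation on GRCh37, 24 such pairs with a tested protein-coding partner were found, and they held 24 of the 78 members. In hypoxia, both genes were called in 6 pairs, only the member in 2, only the partner in 7 and neither in 9. Among all genes tested, 32.2% were called in either direction. The directions matched in 5 of the 6 pairs with both called. MRPS12 starts 181 bases from SARS2, the mitochondrial seryl-tRNA synthetase, which fell from 62.2 and 59.2 FPKM to 24.5 and 21.5, a change of -1.36 ± 0.09 (SE) with an adjusted p of 0.00801 by limma. MRPL27 fell with EME1, MRPL50 with ZNF189, MRPL57 with SKA3 and MRPS18C with HELQ.

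The exception was MRPL47, whose start lies 41 bases from that of NDUFB5, a subunit of respiratory complex I. While MRPL47 fell by 0.54, NDUFB5 rose from 204 and 236 FPKM to 423 and 412, a change of 0.93 ± 0.09 (SE) with an adjusted p of 0.00945 by limma. The 41 bases printed above, in front of the RefSeq start of MRPL47, held a single ETS motif, and the start of NDUFB5 was not located on that build. ACTL6A on the opposite strand, at a mean of 369.5 FPKM, shares 9.01% of the exonic bases of MRPL47 and changed by 0.09. The largest contrast with an uncalled member was PPP1R10, which fell by 2.60 while MRPS18B, starting within the same window, changed by -0.02. MRPS11 and MRPL46 start 63 bases apart and are the only pair made of 2 members, and neither was called.

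**Figure D4:**
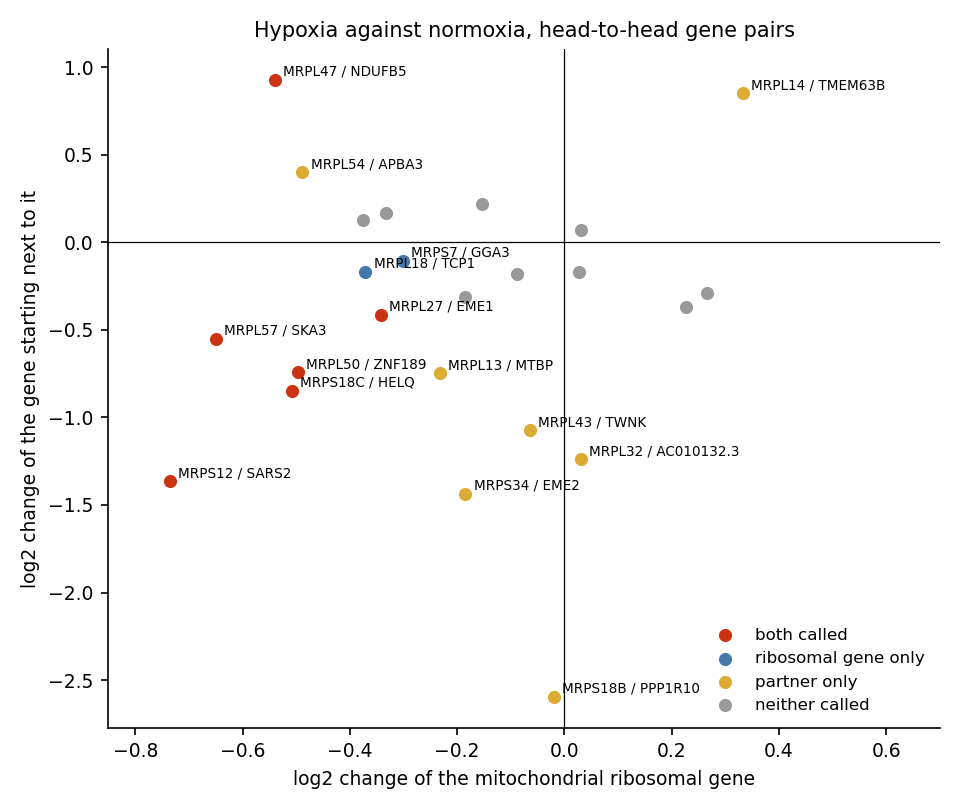
Log2 change in hypoxia in the 24 pairs, for the member (x axis) and for the gene that starts next to it on the other strand (y axis). Colours show which gene of a pair passed limma's test. MRPL47 and NDUFB5 stand alone among the 6 pairs with both genes called in having opposite signs, at -0.54 and 0.93.

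The motif content of the windows was also counted by the call in hypoxia. The ETS motif lay in 52.2% of 23 windows of genes that fell, in 35.2% of 54 windows of genes that were not called and in 25% of 8 windows of genes that rose. The form ACGTG of the hypoxia core lay in 8.70%, 40.7% and 12.5% of them, and windows with the form GCGTG were not counted. These shares count windows and not genes, rest on few genes and were not tested. MRPL34 alone gave several of the 8 windows of genes that rose, none of them with the ETS motif. Of the other genes that rose, MRPL33 and MRPL53 had the ETS motif and MRPL39 and MRPS24 did not. Across the 78 genes, the change in hypoxia had a Spearman's rho of -0.02 with exonic length and 0.05 with mean level, as a description over genes that share the same libraries.

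The second comparison asked what the first guide at the LOXHD1 enhancer changed in hypoxic cells. Of the 78 members, none was called in limma's test of eKD1 against the hypoxic control, where 0.052% of all genes were called lower and 0.013% higher, and 16 members, or 20.5%, had an unadjusted p under 0.05, beside 21.7% of all genes. Under the shared fit of all 8 libraries MRPS24 was the 1 member called, or 1.28% of the family, beside 4.95% of all genes. The family's median change was -0.01, and the changes ran from -0.44 in MRPS24 to 0.34 in MRPL24. MRPS24 had 120.2 and 112 FPKM in eKD1 against 157 and 159 in the hypoxic control, with an adjusted p of 0.108 and a 95% interval of -0.60 to -0.28. MRPL24 had 106 and 98.6 FPKM against 81.9 and 79.2, with an adjusted p of 0.125 and an interval of 0.16 to 0.52. For both genes the groups did not overlap. Both intervals lay to one side of 0, whereas that of MRPL20 ran from -0.10 to 0.54.

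The third comparison did the same for the second guide. In eKD2 against the hypoxic control, 1 member fell and 2 rose, where 3.81% of all genes were called lower and 5.8% higher. The family's median change was 0.00, beside 0.05 for all genes. With median-of-ratios rescaling 4 members were lower and 2 higher, or 7.69% called beside 10.4% of all genes. With equal FPKM totals 1 was lower and 8 higher, or 11.5% beside 12.4%, and 77.5% of all calls in the table were then higher, beside 60.3% without the rescaling. MRPS24 had 111 and 113 FPKM in eKD2 against 157 and 159 in the hypoxic control, a change of -0.49 ± 0.04 (SE) with an adjusted p of 0.0284 by limma. MRPL58 had 48.7 and 46.5 FPKM against 32.0 and 31.1, a change of 0.58 ± 0.07 (SE) with an adjusted p of 0.0337. MRPS10 had 29.3 and 30.4 FPKM against 19.0 and 19.4, a change of 0.61 ± 0.08 (SE) with an adjusted p of 0.0352.

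In all 3 genes the eKD2 libraries lay near the normoxic control, which stood at 113 and 122 FPKM for MRPS24, 51.3 and 43.8 for MRPL58 and 29.7 and 29.6 for MRPS10. The hypoxic control libraries enter both comparisons, so the values are only set side by side. These 3 calls were made in 8 of the 10 settings with all libraries, but not with the replicate block or without the variance trend, where adjusted p reached 0.0924, 0.0934 and 0.0951. Of all 15372 genes, the block called 0 and the fit without the trend 28, so these losses are not particular to the 3 genes. With each library left out in turn in the shared fit, MRPS24 and MRPS10 stayed called, while MRPL58 lost its call without hypoxic control library 1 or 2 or eKD2 library 1 or 2, at adjusted p of 0.0643, 0.0715, 0.0684 and 0.0525.

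**Figure D5:**
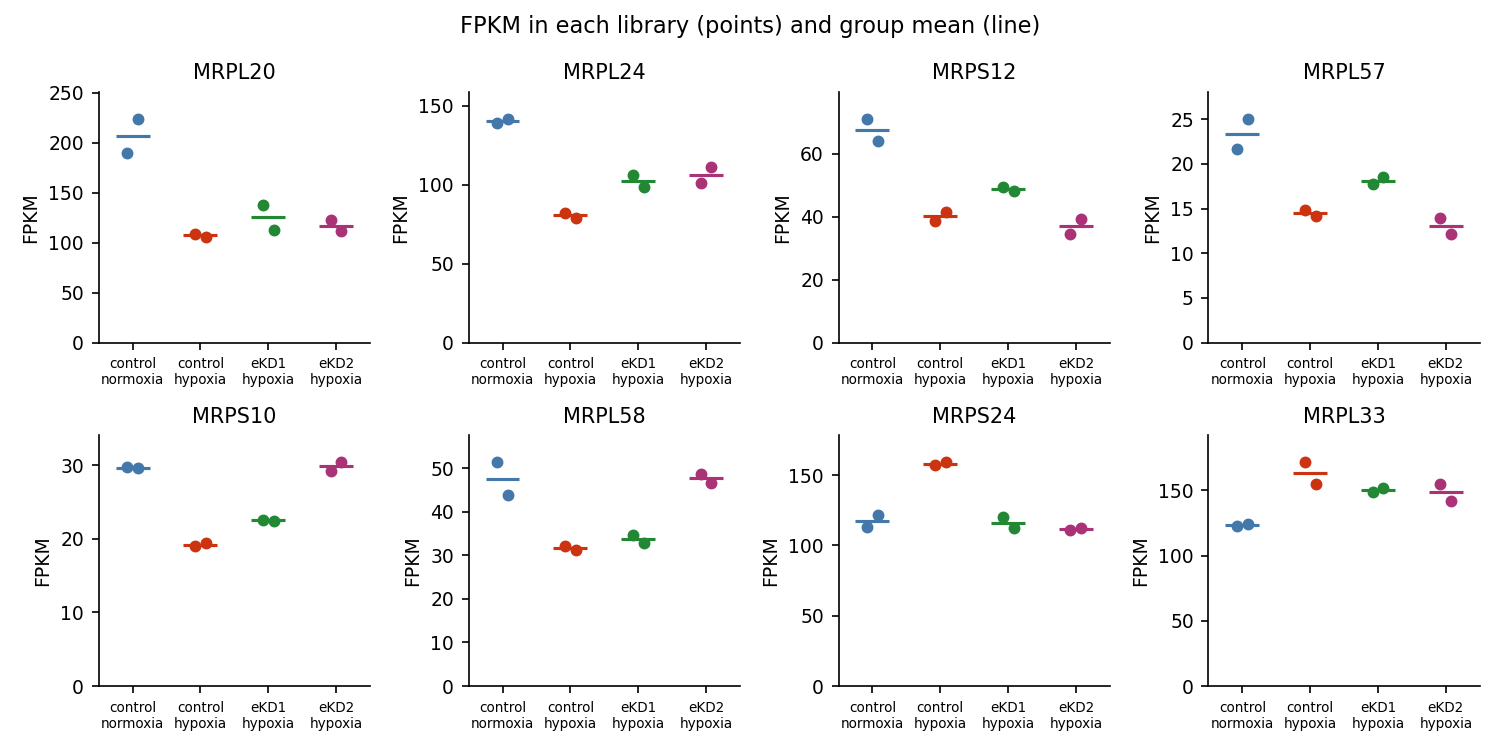
FPKM of 8 members in each library (points) with the mean of each group (line), on axes that start at 0. MRPL20, MRPL24, MRPS12 and MRPL57 are lower in all 6 hypoxic libraries than in normoxia. MRPS10 and MRPL58 are back at 29.3 and 30.4 and at 48.7 and 46.5 FPKM in eKD2, and MRPS24 is high only in the hypoxic control libraries, at 157 and 159.

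MRPL34 had 77.2 and 66.8 FPKM in eKD2 against 104 and 101 in the hypoxic control, a change of -0.51 that missed the threshold at an adjusted p of 0.0532 by limma. It was called in 4 of the 10 settings. MRPL20 and MRPS12, which fell in hypoxia, had 122 and 112 FPKM and 34.5 and 39.4 FPKM in eKD2, with changes of 0.12 and -0.12 that were not called. MRPL24, at 101 and 111 FPKM, changed by 0.39 with an adjusted p of 0.0547. MRPL51, the highest member, had 439 and 411 FPKM against 506 and 522, a change of -0.27 with an adjusted p of 0.0570.

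In eKD2, 65 of the 77 cytosolic ribosomal protein genes and 30 of the 77 respiratory chain genes were called lower, with medians of -0.39 and -0.28, and none and 1 higher. Of the translation factors SLIRP fell by 0.53 and TSFM rose by 0.47, of the assembly factors GTPBP10 rose by 1.043, and of the 5 subunits with other names AURKAIP1 fell by 0.44. Among the regulators MYC rose by 0.79, MXI1 by 1.15 and YY1 by 0.34. No aminoacyl-tRNA synthetase was called, and neither was any gene of the list for mitochondrial DNA and its RNA. In eKD1, no gene of any of these lists was called, where only 10 of all 15372 genes were. The cytosolic ribosomal and respiratory chain genes still had medians of -0.27 and -0.13 there, with 75 and 66 of the 77 below 0. Between eKD2 and eKD1, no gene of these 2 lists was called. Of the 24 genes starting next to a member, 5 were called in eKD2 and none of the paired members was, where 9.61% of all genes were called. The rises were AC010132.3 beside MRPL32, at 1.31 and -0.18, and PPP1R10 beside MRPS18B, at 1.23 and 0.21. The falls were APBA3 beside MRPL54, at -0.80 and 0.03, NDUFS6 beside MRPL36, at -0.51 and 0.31, and FAU beside MRPL49, at -0.40 and 0.16.

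The last comparison set the guides against each other. Between eKD2 and eKD1, none of the members was called by limma, where 0.117% of all genes were called lower and 0.286% higher, and 19 members, or 24.4%, had an unadjusted p under 0.05, beside 23.6% of all genes. Under the shared fit 2 members were called lower and 3 higher, or 6.41% beside 9.05% of all genes. MRPL58 had the largest difference, with 48.7 and 46.5 FPKM in eKD2 against 34.7 and 32.9 in eKD1, a change of 0.48 with an adjusted p of 0.0874 and an interval of 0.27 to 0.70. MRPL57 had the largest in the other direction, with 13.9 and 12.2 FPKM against 17.7 and 18.5, a change of -0.45 with an adjusted p of 0.148. MRPS10 differed by 0.39 with an adjusted p of 0.112, and MRPS24 by -0.05 with an interval of -0.23 to 0.12. The groups did not overlap for the first 3 of these genes, and they overlapped for MRPS24.

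Some members have close copies or overlapping neighbours in the genome that the authors' counting could split. Of 67 pseudogenes of 30 members, 55 were at 0 in every library and 3 reached 1 FPKM. MRPS31P5 and MRPS31P4 had means of 39.6% and 24.7% of MRPS31, and MRPL45P2 17.9% of MRPL45, so these 2 members are uncertain. Exons of another gene overlapped those of 41 members, in 26 cases those of a gene with a mean of at least 1 FPKM, and in 9 of these over more than 20% of the member's exonic bases. Besides MRPL53, MRPL33 and MRPS18C, these 9 included MRPS22, with 38.9% under COPB2, and MRPL51, with 27.6% under NCAPD2, and none of the other 6 was called in any comparison.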

How the data were processed

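RNA was sequenced from 8 libraries of SK-N-MC cells, and the authors deposited 1 table of FPKM values per gene. According to their methods, single-end reads from an mRNA kit were aligned to GRCh37 with STAR, and FPKM was computed with Cufflinks and Cuffnorm. The submitters' processing notes name FastQC, STAR, Cuffnorm, DESeq2 and hg19. FPKM scales each gene by its length and by the mapped reads of its library, so a gain in a few abundant genes lowers the values of the others. The deposited values were used as they stood, and no columns of comparisons were in the table.

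Values were taken as log2(FPKM + 1), which understates changes of low genes. A gene entered the test if 2 or more of the 8 libraries had 1 FPKM or more. The test was that of limma 3.58.1 in R 4.3.3 (lmFit, and eBayes with a variance trend). Each comparison of 2 libraries against 2 was fitted on its own, two-sided, with Benjamini-Hochberg adjustment over all 15372 genes, and a gene with an adjusted p under 0.05 was called. The steps were tested on simulated data. Groups came from the sample labels. Gene positions came from GENCODE release 44 on GRCh37 and start regions from RefSeq on GRCh38.p14, and no coordinates were converted.

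The members and lists were chosen with earlier results of these data known. Named in each comparison were the 10 called members with the largest falls and rises whose groups did not overlap, the largest 5 changes in the direction of fewer members, 14 fixed members, and the highest and lowest member. Other members, partners and list genes were named after their values were seen. Alternatives changed the pseudocount, the filter, the scaling, the libraries in the fit, the replicate block and the variance trend.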

Additional observations from a re-analysis of the deposited data

How the results depend on the processing

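The number of members called moved with the processing, while the family's median change stayed close to that of all genes in the knockdown comparisons. For hypoxia, members called lower and higher numbered 9 and 3 without a filter, 44 and 0 with equal FPKM totals, 25 and 8 in the shared fit of all libraries and again with protein-coding genes only (added after seeing the data), 7 and 1 with the replicate block, and 12 and 1 without the variance trend. In that order, 15.4%, 56.4%, 42.3%, 42.3%, 10.3% and 16.7% of the family were called in either direction. Among all genes tested, the shares were 11.1%, 35.8%, 37.9%, 42.6%, 16.7% and 28%. The family's median change in hypoxia was -0.37 with equal totals. For eKD1, the shared fit called 1 lower, or 1.28% beside 4.95% of all genes, and equal totals gave a median of 0.062. For eKD2, the counts were 4 and 4 with a mean of at least 5 FPKM, 4 lower with median-of-ratios rescaling, 8 higher with a median of 0.11 with equal totals, 4 and 6 in the shared fit, 0 and 0 with the block, 0 and 0 without the trend, and 5 and 6 with protein-coding genes only. Called in either direction were 10.3%, 7.69%, 11.5%, 12.8%, 0%, 0% and 14.1% of the family, in that order. Of all genes tested, the shares were 16.5%, 10.4%, 12.4%, 16.9%, 0%, 0.182% and 20.1%. For eKD2 against eKD1, the median was -0.065 with median-of-ratios rescaling and the shared fit called 2 and 3, or 6.41% beside 9.05% of all genes. The protein-coding fit tests fewer genes and the shared fit uses more libraries, but why the counts moved was not tested for any setting.

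Replicate numbers did not pair the libraries, since deviations of same-numbered libraries had correlations of -0.05 to 0.04. The block, which leaves 1 residual degree of freedom, called no member, and no gene of any kind, in the 3 knockdown comparisons. Leaving out a library in a fit of 3 called 0 members, and no gene of any kind, in each comparison, so it says nothing about stability. In the shared fit of the remaining 7 libraries (added after seeing the data), 16 to 24 members were lower and 2 to 7 higher in hypoxia, 0 in eKD1, 1 to 2 and 1 to 2 in eKD2, and 0 in eKD2 against eKD1, with the lone library assumed to vary like the other groups. Medians ran from -0.18 to -0.13 in hypoxia, -0.01 to 0.02 in eKD1, -0.02 to 0.02 in eKD2 and -0.04 to 0.00 in eKD2 against eKD1.

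Of 792 values for named members under the other settings, 727 kept direction and call, 33 lost and 24 gained a call, and 8 changed sign. With equal totals these were MRPL34 in hypoxia (-0.012), MRPL51 in eKD1 (0.029), MRPS18A (0.028), MRPS30 (0.051) and MRPS36 (0.044) in eKD2, and MRPL11 (0.024) and MRPL55 (0.026) in eKD2 against eKD1. With median-of-ratios rescaling it was MRPL12 there (-0.044). With a library left out, signs changed in hypoxia for MRPL55 (-0.38 to 0.24), MRPS18B (-0.12 to 0.083) and MRPS30 (-0.13 to 0.078), in eKD1 for MRPL55 (-0.49 to 0.13) and MRPS2 (-0.25 to 0.10), in eKD2 for MRPL55 (-0.56 to 0.19), MRPS18A (-0.19 to 0.038), MRPS30 (-0.15 to 0.050) and MRPS36 (-0.14 to 0.018), and in eKD2 against eKD1 for MRPL12 (-0.027 to 0.032), MRPL11 (-0.074 to 0.052), MRPL41 (-0.18 to 0.023), MRPL55 (-0.38 to 0.37) and MRPS2 (-0.35 to 0.0091). Without read counts, what depth limits could not be given beyond the relative depths of 55.7 to 100%.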
